A study of Mus musculus with 12 samples.

Results

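The platelet-derived growth factor (PDGF) genes were followed in whole lungs of neonatal mice that had been injected with lipopolysaccharide (LPS, bacterial endotoxin) or with phosphate-buffered saline (PBS). They are the 4 ligand genes *Pdgfa*, *Pdgfb*, *Pdgfc* and *Pdgfd* and the 2 receptor genes *Pdgfra* and *Pdgfrb*, which were picked by symbol and make 6 of the 52550 genes in the deposited counts. Each symbol matched a single gene, and all 6 were protein-coding and passed the filter on low counts together with 15885 of 21950 protein-coding genes. WT mice carry both copies of the adrenomedullin gene *Adm* and Adm+/- mice carry 1, in every tissue and from conception, on the C57Bl/6J strain, to which a line made in another strain had been backcrossed. LPS from *E. coli* O55:B5 was injected intraperitoneally at 6 mg/kg once a day for 3 days from postnatal day 3, and lungs of both treatments were taken on postnatal day 5, 6 h after the last dose. The groups were WT PBS (replicates 3, 4 and 5), WT LPS (9, 10 and 11), Adm+/- PBS (6, 7 and 8) and Adm+/- LPS (1, 2 and 12), with 3 lungs in each and 12 libraries in all. Replicates are numbered as in the labels, across all groups.

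PDGF proteins are dimeric growth factors that bind receptor tyrosine kinases on mesenchymal cells. The product of *Pdgfa* acts on the receptor encoded by *Pdgfra*, and in the newborn lung this axis is known for forming the alveolar myofibroblasts that raise the septa between air spaces. The product of *Pdgfb* comes largely from endothelial cells and platelets and recruits pericytes, which carry the receptor encoded by *Pdgfrb*. The products of *Pdgfc* and *Pdgfd* are secreted in a latent form and become active once a protease has cut away a domain.

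LPS raised 1 ligand and lowered another in both genotypes. *Pdgfc* rose about 2-fold, with log2 fold changes of 1.04 in WT and 0.97 in Adm+/- mice. *Pdgfb* fell by 0.82 and by 0.78. *Pdgfd* fell by 0.95 in Adm+/- mice, and its log2 fold change of -0.56 in WT mice did not pass the test. A gene is said to rise or fall where the quasi-likelihood test of edgeR gave an adjusted p below 0.05 and the log2 fold change went beyond 0.5 in either direction. By this rule 2 of the 6 PDGF genes (33.3%) changed in WT mice, where 17.6% of all tested genes did, and 3 of 6 in Adm+/- mice, where 25.0% of all tested genes did. When the test was made against a log2 fold change of 0.5 itself (limma-voom treat), none of the 6 passed in either genotype. For *Pdgfc* the adjusted p of that test was 0.0606 in WT mice and 0.0860 in Adm+/- mice.

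*Pdgfc* and *Pdgfd* are shown by the 250 bases before their transcription start in RefSeq (GRCm38.p6), because the former was the ligand that rose and the latter, which is activated in a like way, fell in Adm+/- mice. Capitals mark motif matches. The *Pdgfc* window (chr3:81036166-81036415, plus strand) holds a kappa B motif 150 bases before the start and a CArG box, the binding motif of serum response factor, 17 bases before it. The *Pdgfd* window (chr9:6168236-6168485, plus strand) holds the letters TATAAA of the TATA box motif 160 bases before the start.

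Pdgfc: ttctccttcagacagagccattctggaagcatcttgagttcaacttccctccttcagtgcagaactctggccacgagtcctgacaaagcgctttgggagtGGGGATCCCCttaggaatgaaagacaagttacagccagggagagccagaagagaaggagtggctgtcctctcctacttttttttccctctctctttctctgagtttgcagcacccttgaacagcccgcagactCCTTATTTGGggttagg

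Pdgfd: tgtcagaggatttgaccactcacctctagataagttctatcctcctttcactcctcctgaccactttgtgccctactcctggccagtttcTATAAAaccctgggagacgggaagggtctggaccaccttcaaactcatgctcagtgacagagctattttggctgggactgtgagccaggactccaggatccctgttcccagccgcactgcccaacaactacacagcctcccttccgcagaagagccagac

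Of all 32851 windows of this length, 3.9% hold the kappa B motif, 1.47% the CArG box and 12.4% the TATA box, on either strand. The other motifs searched on both strands were the GC box (GGGCGG), the AP-1 motif (TGANTCA), the STAT motif (TTCNNNGAA), the EGR motif (GCGGGGGCG) and the cyclic AMP response element (TGACGTCA), and none of their letters occurs in these 2 windows. The *Pdgfra* window (chr5:75152001-75152250, plus strand) holds none of the 8 motifs, and both windows listed for *Pdgfa* hold GC boxes, as do 32.7% of all windows. A match is a description of letters and not a site shown to be bound. Windows for *Pdgfb* and *Pdgfrb* were not analysed here.

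The libraries held 22382535 to 38062873 counts on genes. WT PBS replicate 5 and Adm+/- PBS replicate 6 stood apart, since protein-coding genes took 77.8% and 80.1% of their counts and 84.3% to 87.6% elsewhere. The single gene Gm26917 took 16.6% and 13.3% of the counts in these 2 libraries and 5.42% to 7.40% elsewhere. The PDGF genes were counted at 1970 to 10344 reads per library for *Pdgfa*, *Pdgfb*, *Pdgfra* and *Pdgfrb*, at 148 to 527 for *Pdgfd* and at 50 to 266 for *Pdgfc*. WT LPS lungs held skeletal muscle transcripts at a summed 596 to 1625 CPM (counts scaled to library size), against 21.5 to 54.8 CPM in the other 9 libraries, and squamous epithelial transcripts at 88.1 to 2772 CPM against 39.5 to 114 CPM. *Adm* itself was low, at 3.96 to 8.15 CPM in WT and 2.87 to 6.28 CPM in Adm+/- libraries. Its log2 difference between Adm+/- and WT was -0.50 in PBS and -0.55 in LPS, with overlapping libraries and edgeR adjusted p = 0.999 and 0.480, so the label was not shown by its target in these libraries.

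Levels of different genes were compared per length, as reads per kilobase of exon and library size (RPKM, CPM divided by exon length). In WT PBS lungs the order of mean levels was *Pdgfrb* (63.7 ± 8.41 RPKM, SD, n = 3), *Pdgfb* (49.7 ± 14.6 RPKM), *Pdgfa* (42.5 ± 18.0 RPKM), *Pdgfra* (28.1 ± 4.88 RPKM), *Pdgfd* (4.20 ± 1.20 RPKM) and *Pdgfc* (0.806 ± 0.0944 RPKM). The ranges of *Pdgfrb* and *Pdgfb*, of *Pdgfb* and *Pdgfa* and of *Pdgfa* and *Pdgfra* overlapped, whereas *Pdgfd* lay below all of these and *Pdgfc* below *Pdgfd*. The order of means was the same in Adm+/- PBS lungs, from 65.0 ± 5.28 RPKM for *Pdgfrb* to 0.648 ± 0.117 RPKM for *Pdgfc*. Within a library, *Pdgfrb* was above *Pdgfra* and *Pdgfb* above *Pdgfa* in 12 of 12. *Pdgfb* was above *Pdgfra* in 6 of 6 PBS libraries and in 2 of 6 LPS libraries. After LPS the mean of *Pdgfra* was 28.5 ± 3.63 RPKM in WT and 34.2 ± 3.11 RPKM in Adm+/- lungs, beside 28.2 ± 3.02 and 27.8 ± 2.20 RPKM for *Pdgfb*, and the WT ranges of both genes overlapped.

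**Figure D1:**
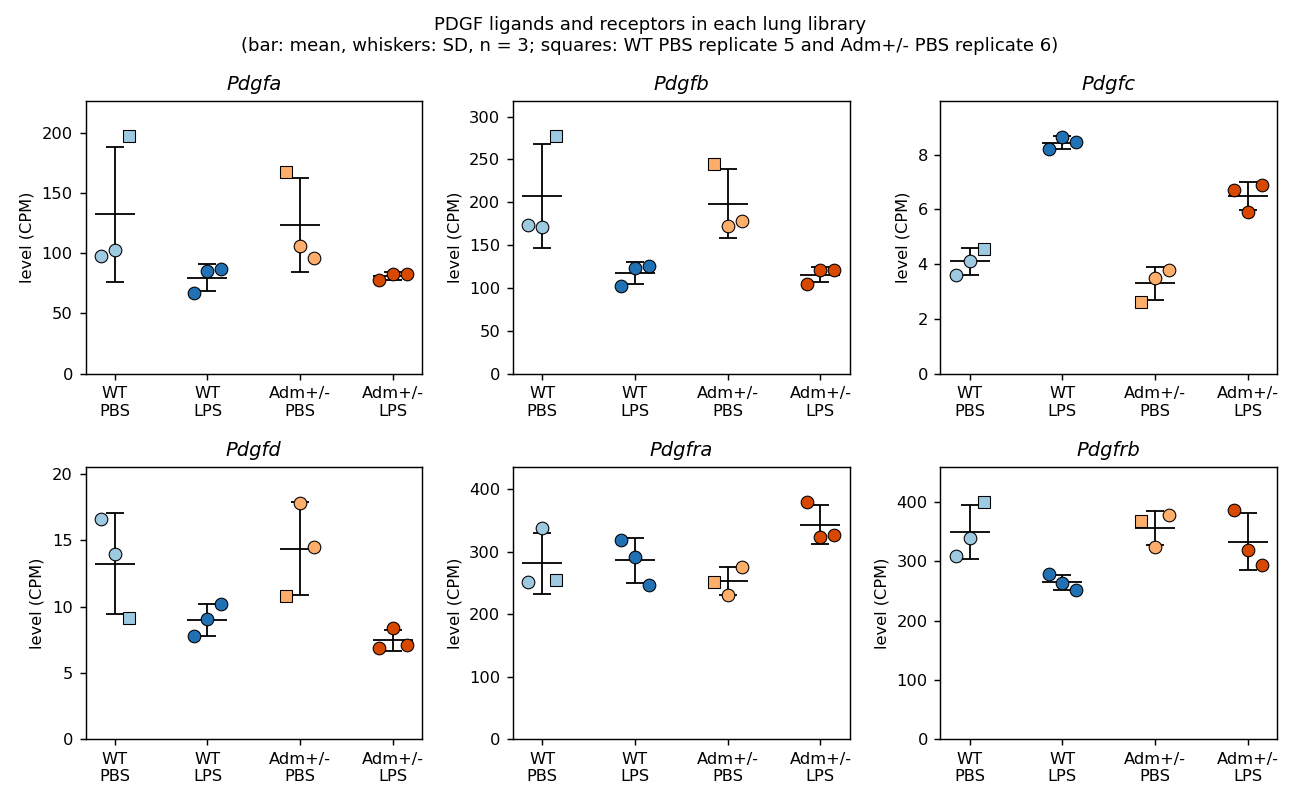
Level of each PDGF gene (CPM, linear axis from 0) in each of the 12 libraries, by group, with the mean and SD of 3 libraries. *Pdgfc* is higher in every LPS library than in any PBS library, *Pdgfb* is lower, and the squares of WT PBS replicate 5 and Adm+/- PBS replicate 6 are the highest points of *Pdgfa* and *Pdgfb* in their groups.

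*Pdgfc* (ENSMUSG00000028019, chromosome 3 of mm10 from 81036416 to 81214040, plus strand) was the least abundant ligand. WT libraries had 3.61, 4.13 and 4.57 CPM in PBS and 8.20, 8.48 and 8.65 CPM in LPS. Adm+/- libraries had 2.63, 3.48 and 3.78 CPM in PBS and 5.91, 6.69 and 6.88 CPM in LPS. All 6 LPS libraries were above all 6 PBS libraries. The rise was 2.06-fold in WT mice (log2 fold change 1.04, SE 0.16, edgeR adjusted p = 0.00161) and 1.96-fold in Adm+/- mice (0.97, SE 0.17, edgeR adjusted p = 0.00126). It kept its call in 12 of 12 fits that each left out a library, with log2 fold changes from 0.96 to 1.12 in WT and from 0.83 to 1.08 in Adm+/- mice. The non-coding gene Gm16000 on the opposite strand shares 147 exon bases with *Pdgfc* and had at most 19 counts.

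*Pdgfd* (ENSMUSG00000032006, chromosome 9 from 6168584 to 6378850, plus strand), the other latent ligand, went the other way. WT libraries had 9.14, 14.0 and 16.6 CPM in PBS and 7.77, 9.07 and 10.2 CPM in LPS, and the lowest PBS library, replicate 5, lay within the LPS range. Adm+/- libraries had 10.8, 14.5 and 17.8 CPM in PBS and 6.92, 7.09 and 8.38 CPM in LPS, without overlap. *Pdgfd* fell by 0.95 in Adm+/- mice (SE 0.23, edgeR adjusted p = 0.0103), and the call held in 12 of 12 fits that left out a library. The WT value was -0.56 (SE 0.23, edgeR adjusted p = 0.104). Without WT PBS replicate 5 the WT value was -0.77 and passed the test (edgeR adjusted p = 0.0283), as it did without both libraries of low protein-coding share (-0.77, edgeR adjusted p = 0.0121). Without WT PBS replicate 3 it was smaller, -0.37 (edgeR adjusted p = 0.293).

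*Pdgfb* (ENSMUSG00000000489, chromosome 15 from 79995874 to 80014977, minus strand), the ligand of endothelial cells and platelets, had 171, 173 and 277 CPM in WT PBS libraries and 103, 124 and 126 CPM in WT LPS libraries. In Adm+/- libraries it had 173, 178 and 245 CPM in PBS and 105, 121 and 121 CPM in LPS. No LPS library reached the lowest PBS library. *Pdgfb* fell by 0.82 in WT (SE 0.20, edgeR adjusted p = 0.0133) and by 0.78 in Adm+/- mice (SE 0.20, edgeR adjusted p = 0.0111). The highest PBS values were those of replicates 5 and 6. Without both of these libraries the log2 fold changes were -0.56 in WT (edgeR adjusted p = 0.00587) and -0.60 in Adm+/- mice (edgeR adjusted p = 0.00173). The WT call was lost without WT LPS replicate 9 (-0.74, edgeR adjusted p = 0.0653) and in a fit of the WT libraries alone (-0.82, edgeR adjusted p = 0.0575).

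*Pdgfa* (ENSMUSG00000025856, chromosome 5 from 138976014 to 138997370, minus strand), the ligand of the myofibroblast axis, had 97.5, 103 and 197 CPM in WT PBS libraries and 66.6, 85.0 and 87.3 CPM in WT LPS libraries. In Adm+/- libraries it had 96.1, 106 and 168 CPM in PBS and 77.6, 82.5 and 83.2 CPM in LPS. The groups did not overlap in either genotype, but the PBS libraries spread widely. Neither the WT log2 fold change of -0.73 (SE 0.27, edgeR adjusted p = 0.0717) nor the Adm+/- value of -0.60 (SE 0.27, edgeR adjusted p = 0.110) passed the test. Without replicates 5 and 6 both values were smaller, -0.33 in WT (edgeR adjusted p = 0.0604) and -0.32 in Adm+/- mice (edgeR adjusted p = 0.0519). The WT value passed with DESeq2 (-0.73, adjusted p = 0.0374) and, by edgeR, without WT PBS replicate 3 (-0.92, adjusted p = 0.0394) or Adm+/- PBS replicate 6 (-0.74, adjusted p = 0.0453), and the Adm+/- value passed without WT PBS replicate 5 (-0.60, adjusted p = 0.0226) or in a fit of the Adm+/- libraries alone (-0.60, adjusted p = 0.0342). The antisense gene 6330403L08Rik shares 813 exon bases with *Pdgfa*, and since the strand setting of the counting is not given in the sources used here, reads of both genes may not be fully separated.

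*Pdgfra* (ENSMUSG00000029231, chromosome 5 from 75152292 to 75198215, plus strand), the receptor of fibroblasts and alveolar myofibroblast precursors, had 251, 255 and 338 CPM in WT PBS libraries and 247, 292 and 319 CPM in WT LPS libraries. Its WT log2 fold change was 0.02 (95% interval -0.28 to 0.33, edgeR adjusted p = 0.924) and the groups overlapped. In Adm+/- libraries it had 231, 251 and 276 CPM in PBS and 323, 326 and 379 CPM in LPS, without overlap. The Adm+/- log2 fold change was 0.44 (SE 0.14, edgeR adjusted p = 0.0337), past the p threshold but under the fold threshold. It passed both without Adm+/- PBS replicate 8 (0.51, edgeR adjusted p = 0.0449).

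*Pdgfrb* (ENSMUSG00000024620, chromosome 18 from 61045150 to 61085061, plus strand), the pericyte receptor, was the most abundant of the 6 per length in every group. WT libraries had 309, 339 and 399 CPM in PBS and 252, 264 and 278 CPM in LPS, without overlap. The WT log2 fold change was -0.40 (SE 0.13, edgeR adjusted p = 0.0430), again under the fold threshold. Adm+/- libraries had 323, 368 and 377 CPM in PBS and 294, 319 and 386 CPM in LPS, with overlap and a log2 fold change of -0.10 (95% interval -0.37 to 0.18, edgeR adjusted p = 0.599). Counted over the 6 genes, PBS and LPS libraries did not overlap for 4 in WT mice, where this held for 36.2% of all tested genes, and for 5 in Adm+/- mice, where it held for 53.7%.

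The genotypes were compared next. The LPS response differed between them by less than the test could call for each of the 6 genes, and 0.145% of all tested genes were called in this contrast. The Adm+/- response minus the WT response was 0.42 for *Pdgfra* (95% interval -0.01 to 0.85, edgeR adjusted p = 0.654) and 0.30 for *Pdgfrb* (-0.09 to 0.69, edgeR adjusted p = 0.780) on the log2 scale. For *Pdgfd* it was -0.39 (-1.11 to 0.33, edgeR adjusted p = 0.936). The intervals of *Pdgfa* (-0.70 to 0.96), *Pdgfb* (-0.56 to 0.64) and *Pdgfc* (-0.58 to 0.44) each leave room for a difference of 0.4 in either direction. So the call of *Pdgfd* in Adm+/- and not in WT mice is not a shown difference between the genotypes.

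Between Adm+/- and WT lungs in PBS, no PDGF gene was called, and the libraries overlapped for each of the 6, whereas 4.99% of all tested genes were free of overlap. In this contrast edgeR, DESeq2 and limma-voom called 0 of all tested genes, with 344 genes at an unadjusted p under 0.05 by edgeR. Log2 differences ran from -0.30 for *Pdgfc* to 0.12 for *Pdgfd*. In LPS lungs, again none of the 6 was called, against 2.05% of all tested genes. Libraries did not overlap for 3 of the 6 in LPS, while this held for 24.6% of all tested genes. *Pdgfc* was lower in all Adm+/- LPS libraries (5.91 to 6.88 CPM) than in any WT LPS library (8.20 to 8.65 CPM), with a log2 difference of -0.38 (SE 0.16, edgeR adjusted p = 0.30). *Pdgfra* (0.26, SE 0.14, edgeR adjusted p = 0.452) and *Pdgfrb* (0.33, SE 0.13, edgeR adjusted p = 0.232) were higher in all Adm+/- LPS libraries than in any WT LPS library.

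**Figure D2:**
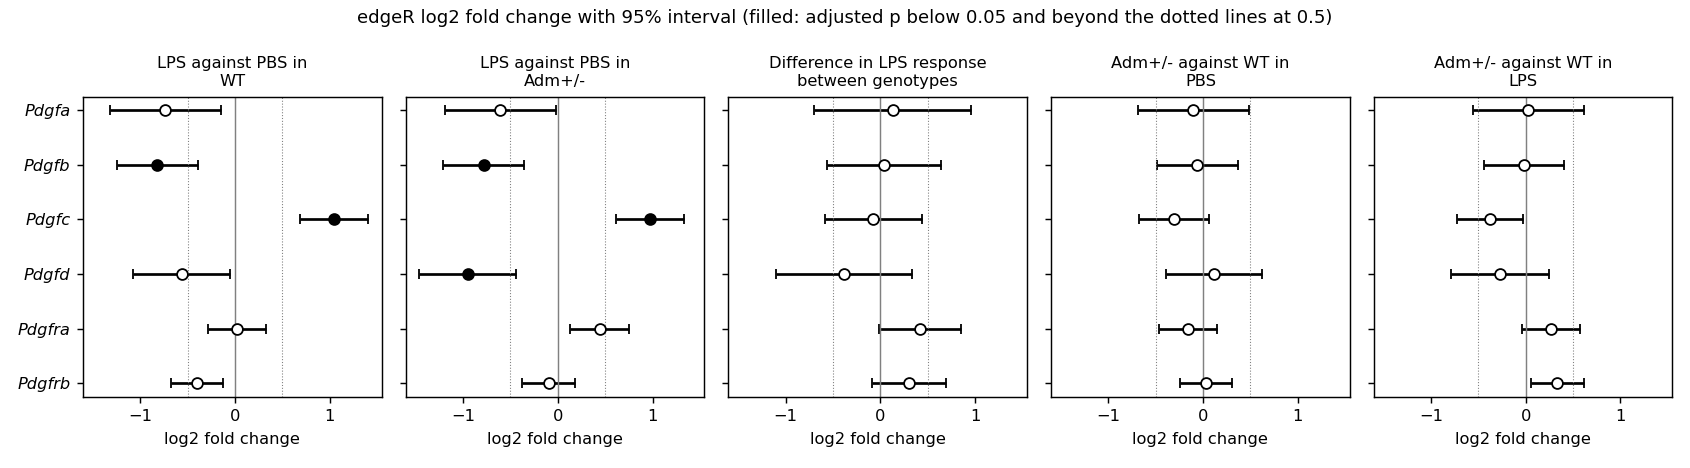
Log2 fold change of each PDGF gene with its 95% interval from edgeR (n = 3 libraries per group) in the 5 comparisons, with filled points for genes called and dotted lines at 0.5 in both directions. *Pdgfc* and *Pdgfb* are filled in both LPS comparisons, *Pdgfd* in Adm+/- mice, and no point is filled in the other 3 panels.

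Ratios within a library do not depend on the scaling between libraries and are given as a description. A shift that differs between genes of the same library does not cancel in them. PBS replicates 5 and 6 had the highest ratios of *Pdgfa* to *Pdgfc*, *Pdgfa* to *Pdgfra* and *Pdgfb* to *Pdgfrb* in their groups. They also had the lowest ratio of *Pdgfra* to *Pdgfrb* and the highest summed ligand level there. The ratio of *Pdgfa* to *Pdgfc*, both of which encode ligands that the alpha receptor binds, had a median of 44.1 in WT PBS lungs and 16.0 in WT LPS lungs, and of 49.8 and 19.7 in Adm+/- lungs, by RPKM. No LPS library reached the lowest PBS library. *Pdgfc* held a median of 0.900% of the summed RPKM of the 4 ligands in WT PBS and 2.76% in WT LPS lungs, and 0.835% and 2.28% in Adm+/- lungs, so it stayed a small part of ligand transcripts. *Pdgfa* held 39.1% to 47.3% and *Pdgfb* 47.1% to 54.2% across all libraries. The summed ligand level was 78.9 to 134 RPKM in WT PBS and 50.1 to 63.1 RPKM in WT LPS lungs. In Adm+/- lungs it was 78.9 to 117 RPKM in PBS and 53.6 to 59.4 RPKM in LPS.

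The ratio of the receptors, *Pdgfra* to *Pdgfrb*, was 0.372 to 0.400 in Adm+/- PBS and 0.537 to 0.606 in Adm+/- LPS lungs, without overlap. In WT lungs it was 0.349 to 0.545 in PBS and 0.536 to 0.627 in LPS, with overlap. The ratio of *Pdgfa* to *Pdgfra* was 1.12 to 2.15 in Adm+/- PBS and 0.658 to 0.820 in Adm+/- LPS lungs, and 0.979 to 2.48 and 0.672 to 1.14 in WT lungs. The ratio of *Pdgfb* to *Pdgfrb* was 0.620 to 0.875 in Adm+/- PBS and 0.359 to 0.542 in Adm+/- LPS lungs, and 0.663 to 0.913 and 0.487 to 0.657 in WT lungs. The ratio of *Pdgfb* to *Pdgfrb* was thus lower in every LPS library than in any PBS library of its genotype, whereas that of *Pdgfa* to *Pdgfra* was so in Adm+/- lungs and overlapped in WT lungs. The ratio of *Pdgfc* to *Pdgfra* went the other way, at 0.0240 to 0.0353 in WT PBS and 0.0507 to 0.0677 in WT LPS lungs, and at 0.0206 to 0.0297 and 0.0348 to 0.0415 in Adm+/- lungs, without overlap. The ratio of *Pdgfb* to *Pdgfd* overlapped between treatments in both genotypes, with its highest values, 23.0 and 17.2, in PBS replicates 5 and 6.

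**Figure D3:**
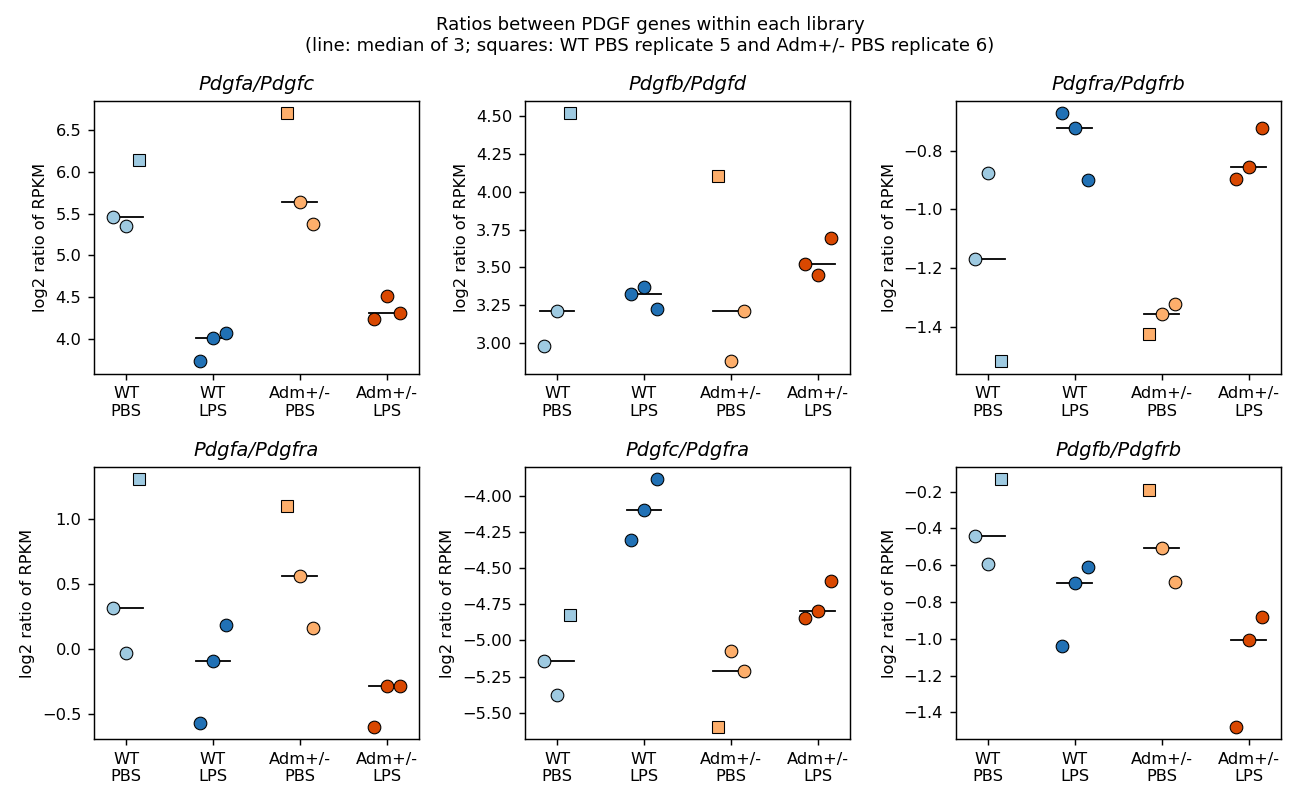
Log2 of the RPKM ratio of pairs of PDGF genes within each library, by group, with a line at the median of 3. The ratio of *Pdgfa* to *Pdgfc* is lower in every LPS library than in any PBS library, and the ratio of *Pdgfra* to *Pdgfrb* separates the treatments in Adm+/- lungs.

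The libraries that stood apart moved the PDGF genes in different directions. Against the other PBS libraries of their genotype, WT PBS replicate 5 and Adm+/- PBS replicate 6 had *Pdgfa* higher by 0.98 and 0.73, *Pdgfb* higher by 0.69 and 0.48, and *Pdgfd* at -0.73 and -0.57 on the log2 CPM scale. *Pdgfc* was at 0.24 and -0.45, where genes within 2 points of its 50.7% GC had medians of 0.04 and 0.03. *Pdgfra* was at -0.19 and -0.0086, and *Pdgfrb* at 0.30 and 0.076. In these libraries the median shift of all tested genes differed with the GC content of their transcripts, from -0.92 and -0.50 in genes of 35% to 40% GC to 0.73 and 0.42 in genes of 60% to 65% GC. The transcript of *Pdgfd* has 39.9% GC and that of *Pdgfb* 60.0%, and genes within 2 points of their GC had medians of -0.73 and -0.38 and of 0.58 and 0.34. *Pdgfa*, at 52.1% GC, lay well above the medians of 0.15 and 0.08 of genes like it. With offsets for GC content in the fit, an alternative chosen after the data had been seen, *Pdgfb* fell by 0.54 in WT and by 0.53 in Adm+/- mice, *Pdgfd* fell by 0.78 and by 1.03, and *Pdgfc* rose by 1.09 and by 0.99, all past the test.

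**Figure D4:**
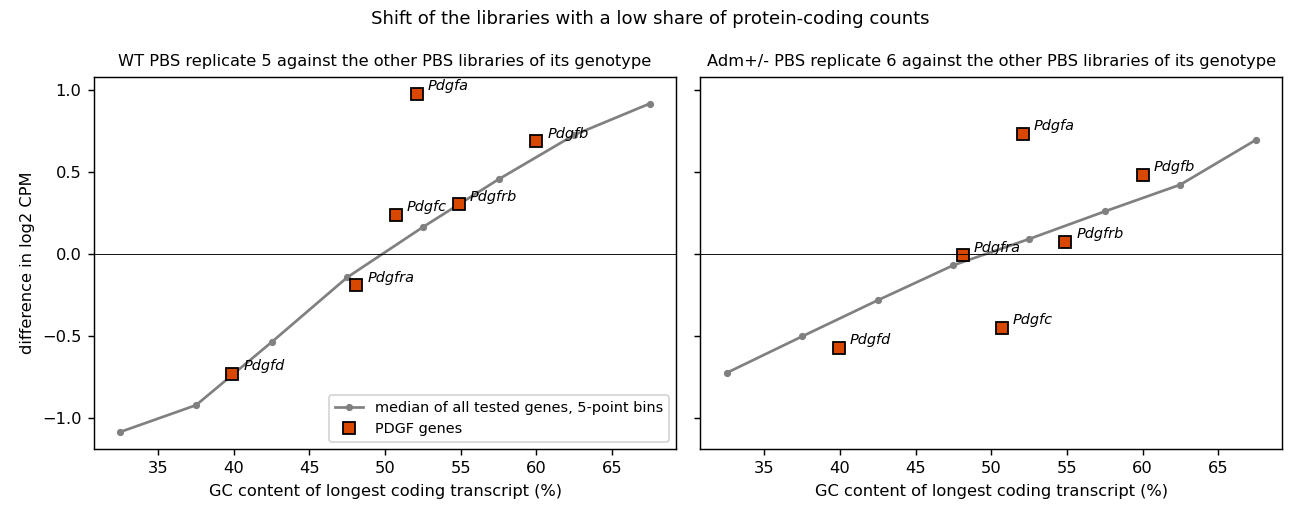
Difference in log2 CPM between a library of low protein-coding share and the other PBS libraries of its genotype, against transcript GC content (%), for the 6 PDGF genes (squares) and as the median of all tested genes in bins of 5 points (line). *Pdgfd* and *Pdgfb* lie near the line in WT PBS replicate 5, and *Pdgfa* lies above it in both libraries.

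Genes around the receptors were taken from 4 hand-written lists, of which every member was tested. The first holds 11 genes for processing and binding of PDGF and for co-receptors, and it had 2 rises in WT and 3 in Adm+/- mice and no fall. Its median log2 fold change was -0.19 and -0.08, beside 0.01 and -0.01 over all tested genes, and 10.5% and 12.8% of all tested genes rose while 7.09% and 12.2% fell. The WT median was -0.095 when WT LPS replicate 9 was left out and -0.01 without both libraries of low protein-coding share, and the Adm+/- median was then -0.011. *Plat*, which encodes tissue plasminogen activator, a protease that activates the *Pdgfc* product, rose from 46.7 to 96.7 CPM in WT means (log2 fold change 1.05) and from 51.5 to 146 CPM in Adm+/- means (1.5). *Furin*, a protease that processes PDGF precursors, rose by 0.76 in Adm+/- mice and had 0.27 in WT mice (edgeR adjusted p = 0.190). The other genes called, named after their values were seen, were *Spint1*, an inhibitor of the protease matriptase, in WT mice (0.64), and *St14*, which encodes matriptase, in Adm+/- mice (0.67). In the other genotype *Spint1* had 0.35 and *St14* 0.01, neither called. The most abundant members did not pass. *Sparc*, whose product binds PDGF, had -0.30 and -0.08, and *Lrp1*, a co-receptor, 0.11 and 0.35. Without WT LPS replicate 9, 1 gene of this list rose in WT mice, *Plat* (0.74), and in Adm+/- mice 3 rose and 1 fell, *Pdgfrl* (-0.53, named after its value was seen), which had -0.53 with all libraries (edgeR adjusted p = 0.058). The call of *Spint1* was lost without any of WT PBS replicates 3 and 4 and WT LPS replicates 9 and 11 (0.44 to 0.63). That of *St14* was lost without Adm+/- PBS replicate 7 or 8 or Adm+/- LPS replicate 12 (0.61 to 0.66). Summed squamous transcripts stood at 2772 CPM in WT LPS replicate 9, at 1500 CPM in 11 and at 88.1 CPM in 10. Without WT LPS replicate 10 the WT value of *Spint1* was 0.82, and the part of squamous tissue in its rise was not tested.

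The relay list holds 32 genes that carry the signal inside the cell, most of which did not pass the test. In WT mice 1 fell, the adaptor gene *Nck2* (-0.73), and none rose, where 10.5% of all tested genes rose and 7.09% fell. In Adm+/- mice 2 rose and 4 fell, where 12.8% of all tested genes rose and 12.2% fell. The kinase gene *Akt2* rose by 0.66 and *Pik3r1*, a regulatory subunit of PI 3-kinase, by 0.51, while *Nck2* fell by 0.64 and *Pik3r2*, another such subunit, by 0.80. *Vav3* and *Grb7*, named after their values were seen, also fell in Adm+/- mice, by 0.88 and by 0.65, and had -0.06 and -0.09 in WT mice. The fall of *Vav3* was the largest of the list in Adm+/- mice, and its difference in LPS response between the genotypes was not called (-0.82, edgeR adjusted p = 0.361). The WT values were 0.19 for *Akt2*, 0.47 for *Pik3r1* and -0.43 for *Pik3r2*, and none of these was called. Without WT PBS replicate 4 *Pik3r1* was called in WT mice (0.64, edgeR adjusted p = 0.00362). Leaving out 1 library gave -0.54 to -0.19 for *Pik3r2* in WT mice. The call of *Pik3r1* was lost without Adm+/- LPS replicate 2 (0.47) or Adm+/- PBS replicate 6 (0.49), and without both libraries of low protein-coding share 1 gene of the list rose and 3 fell in Adm+/- mice. The most abundant kinase genes, *Akt1* (-0.31 and -0.27) and *Mapk3* (-0.21 and -0.19), did not pass in either genotype. Leaving out 1 library gave -0.44 to -0.059 for *Akt1* in WT and -0.34 to -0.13 in Adm+/- mice. The median of the list was -0.05 in WT and -0.08 in Adm+/- mice, and 0.04 and -0.01 without both libraries of low protein-coding share.

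The restraint list holds 22 phosphatases, Sprouty genes, suppressors of cytokine signalling and other brakes on the receptors. It had 4 rises and 1 fall in WT mice and 6 rises in Adm+/- mice, with medians of 0.06 and 0.18. Of all tested genes, 10.5% rose and 7.09% fell in WT mice, and 12.8% and 12.2% in Adm+/- mice. *Socs3* rose from 48.5 to 147 CPM in WT means (1.6) and from 24.2 to 316 CPM in Adm+/- means (3.71). *Ptpn1*, a phosphatase that acts on PDGF receptors, rose by 0.94 and by 1.84. *Socs1* fell by 0.97 in WT mice and had -0.45 in Adm+/- mice. *Ptprj* and *Inpp5d* rose in both genotypes and *Ptpn2* and *Ptpn12* in Adm+/- mice, all 4 named after their values were seen. *Dusp6*, the most abundant member and a phosphatase that is itself induced by ERK kinases, did not pass (-0.25 and -0.18). Many of these genes also answer to cytokines, so the list is not particular to PDGF. Without WT LPS replicate 9 the list had 2 rises and no fall in WT mice, and *Socs3* (1.19, edgeR adjusted p = 0.146), *Ptpn1* (0.72, edgeR adjusted p = 0.0806) and *Socs1* (-0.79, edgeR adjusted p = 0.0551) were not called. The WT call of *Socs3* was also lost without WT PBS replicate 3 (1.27) or 5 (1.36) or WT LPS replicate 10 (1.59).

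The last list holds 22 early response genes that growth factors induce within an hour. It had 8 rises and 1 fall in WT mice and 10 rises and 1 fall in Adm+/- mice, with medians of 0.48 and 0.43, where 10.5% and 12.8% of all tested genes rose and 7.09% and 12.2% fell. The widest rises were those of the chemokine genes *Cxcl1*, from 0.435 to 2.81 CPM in WT means (2.70) and from 0.291 to 14.7 CPM in Adm+/- means (5.61), and *Ccl2* (3.13 and 4.52), which inflammatory signals also induce. *Srf*, which encodes serum response factor, fell by 0.76 in WT mice and had -0.67 in Adm+/- mice (edgeR adjusted p = 0.0531). *Fosb* fell by 1.23 in Adm+/- mice and had -0.80 in WT mice. The WT call of *Srf* held in 3 of 12 fits that each left out a library and was -0.33 without WT PBS replicate 5. In Adm+/- mice *Srf* was called without WT PBS replicate 3, 4 or 5 (-0.67, -0.67 and -0.66), with DESeq2, in a fit of the Adm+/- libraries alone, and without both libraries of low protein-coding share (-0.52). The Adm+/- call of *Fosb* was lost without Adm+/- LPS replicate 1 or 12 or Adm+/- PBS replicate 7 (-1.19 to -0.98). The abundant *Jun* (0.17 and 0.45) was not called, and *Ier2* stood at 110 and 89.6 CPM in WT means and at 99.1 and 109 CPM in Adm+/- means. Without WT LPS replicate 9 the WT count was 1 rise and no fall, and *Cxcl1* (1.44, edgeR adjusted p = 0.169) and *Ccl2* (2.43, edgeR adjusted p = 0.0567) were not called. *Cxcl1* was also not called in WT mice without WT PBS replicate 3 (2.35) or 5 (2.48). In WT mice, without both libraries of low protein-coding share it was 6 rises and no fall, and in Adm+/- mice then 11 rises and 3 falls.

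**Figure D5:**
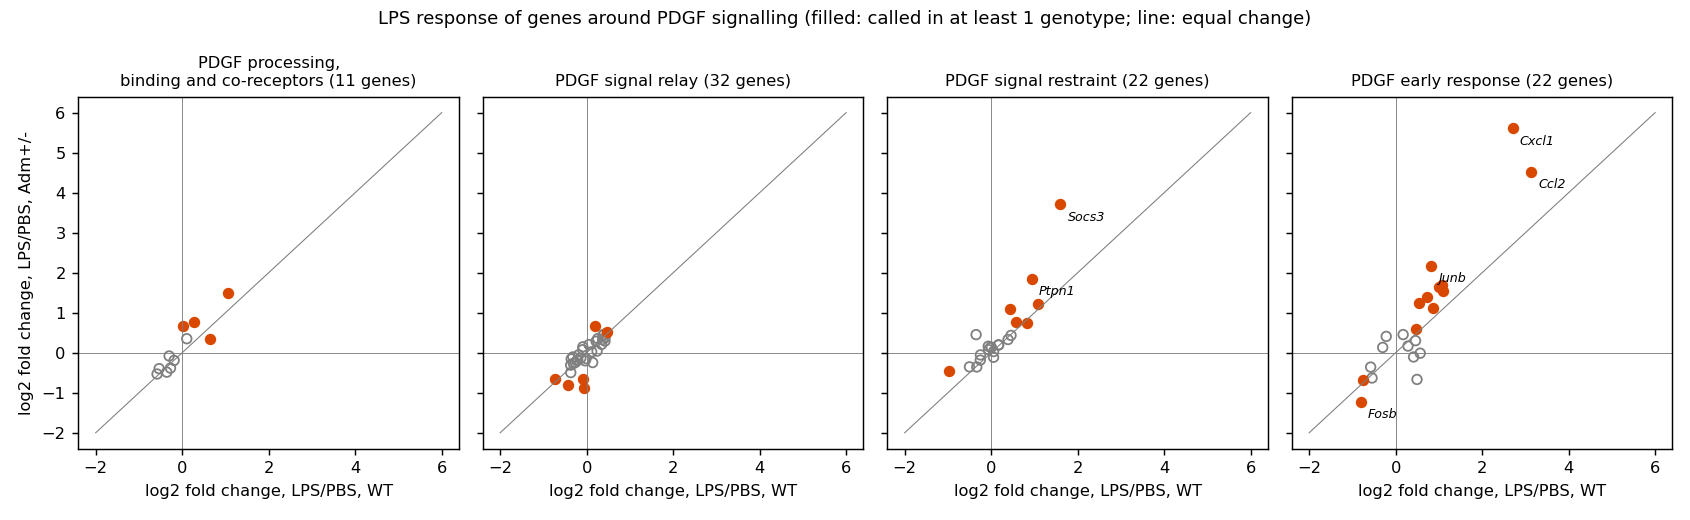
Log2 fold change of LPS against PBS in WT mice on the x axis and in Adm+/- mice on the y axis, for the tested genes of the 4 lists around PDGF signalling, filled where a gene was called in at least 1 genotype, with the line of equal change. *Socs3*, *Cxcl1* and *Ccl2* lie farthest from 0, and the relay genes lie close to it.

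No gene of the 4 lists was called for a difference in LPS response between the genotypes. Between Adm+/- and WT mice in LPS, 3 genes of these lists were called, where 2.05% of all tested genes were called, and all 3 are named after their values were seen. *Vav3* was lower by 0.78 on the log2 scale, and *Spry4*, a Sprouty inhibitor, and the early response gene *Ier3* were higher by 0.75 and 0.78. When WT LPS replicate 9 was left out, the count was 1 processing, 1 relay, 1 restraint and 3 early response genes, and without both libraries of low protein-coding share it was 2 relay, 2 restraint and 1 early response genes.

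In bulk tissue, fewer cells of a type and less RNA per cell cannot be told apart. Markers of the cells that carry or send PDGF are therefore given beside the PDGF genes. Endothelial markers, the cells known for *Pdgfb*, had 3 falls in WT (*Sox17*, *Tie1* and *Kdr*) and 4 in Adm+/- mice (*Sox17*, *Egfl7*, *Tek* and *Kdr*) among 16, with no rise and a median of -0.29 and -0.30, and these 5 were named after their values were seen. Of all tested genes, 7.09% fell in WT and 12.2% in Adm+/- mice. In WT mice, 2 of these markers and 2 pericyte markers fell when WT LPS replicate 9 was left out. Their summed level was 5304 to 5774 CPM in WT PBS and 4595 to 4706 CPM in WT LPS libraries, and 5355 to 5625 and 4791 to 5300 CPM in Adm+/- libraries. The most abundant of them were *Cldn5*, at 433 and 338 CPM in WT means and 433 and 475 CPM in Adm+/- means, and *Cdh5*, with log2 fold changes of -0.15 and 0.09. The part of endothelial markers in the fall of *Pdgfb* was not tested.

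Pericyte markers, which go with *Pdgfrb*, had 3 falls among 16 in each genotype and 1 rise in Adm+/- mice, with medians of -0.32 and -0.31. Of all tested genes, 7.09% fell in WT mice, and 12.2% fell and 12.8% rose in Adm+/- mice. Their summed level was 2659 to 3091 CPM in WT PBS and 2173 to 2405 CPM in WT LPS libraries, and 2959 to 3108 and 2449 to 2734 CPM in Adm+/- libraries. The guanylate cyclase subunit gene *Gucy1a3* fell in both genotypes, *Notch3* and *Cox4i2* in WT mice, and *Gucy1b3* and *Angpt1* in Adm+/- mice, where *Lamc3* rose (all named after their values were seen). The abundant *Mcam* stood at 471 and 437 CPM in WT means and at 465 and 610 CPM in Adm+/- means, and *Postn* had -0.31 and -0.26. The part of pericyte markers in the values of *Pdgfrb* was not tested.

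Alveolar fibroblast markers, which go with *Pdgfra*, had 2 rises and 4 falls among 17 in WT and 2 rises and 6 falls in Adm+/- mice, with medians of -0.41 and -0.57. These counts, and those of myofibroblast markers, stand beside 10.5% of all tested genes that rose and 7.09% that fell in WT mice, and 12.8% and 12.2% in Adm+/- mice. *Col1a1* and *Mfap4*, the most abundant, were not called. In WT mice *Col1a1* passed with DESeq2 (-1.11) and without WT PBS replicate 3 or 4 (-1.38 in each), and was -0.35 without WT PBS replicate 5. In Adm+/- mice it passed without WT PBS replicate 5 (-0.81) and in a fit of the Adm+/- libraries alone (-0.81). It was -0.38 there without Adm+/- PBS replicate 6. *Wnt2*, *Fgfr4*, *Fgf10* and *Meox2* fell in both genotypes and *Inmt* rose in both, *Plin2* rose in WT mice, and *Fn1* rose while *Itga8* and *Tcf21* fell in Adm+/- mice (all named after their values were seen), in Adm+/- lungs beside the *Pdgfra* value of 0.44. Myofibroblast markers, the cells that *Pdgfa* is known to form, had 4 falls in WT (*Lgr6*, *Pdlim3*, *Wnt5a* and *Fgf18*) and 5 in Adm+/- mice (*Pdlim3*, *Hhip*, *Wnt5a*, *Mustn1* and *Fgf18*) among 16 and no rise, and these 6 were likewise named after their values were seen. *Acta2*, the smooth muscle actin gene, had -0.16 in both genotypes, and *Eln*, elastin, stood at 7661 ± 4244 CPM (SD, n = 3) in WT PBS and 5588 ± 483 CPM in WT LPS lungs, and at 5285 ± 1102 and 6254 ± 1594 CPM in Adm+/- lungs. Summed fibroblast markers were at 50020 CPM in WT PBS replicate 5 and at 34618 CPM in Adm+/- PBS replicate 6, the libraries with the highest *Pdgfa*, against 21844 to 23610 CPM in the other PBS and 16473 to 21402 CPM in the LPS libraries. Summed myofibroblast markers were at 15260 and 9362 CPM in these 2 libraries, against 7274 to 8243 CPM in the other PBS and 6897 to 9859 CPM in the LPS libraries. The WT counts without WT LPS replicate 9 were 1 rise and 3 falls of fibroblast and 3 falls of myofibroblast markers. Without both libraries of low protein-coding share, fibroblast markers had 1 rise and 5 falls and a median of -0.30 in Adm+/- mice (-0.31 in WT mice), and myofibroblast markers 1 rise and 5 falls in WT and 6 falls in Adm+/- mice. The part of these cells in the values of *Pdgfra* and *Pdgfa* was not tested.

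Platelets carry PDGF protein, and 1 of 9 platelet and megakaryocyte markers rose in WT (*Ppbp*) and 3 in Adm+/- mice (*Ppbp*, *Gp1ba* and *Itga2b*, named like the others in this paragraph after their values were seen), at a summed level of 32.2 to 51.0 CPM in PBS and 44.8 to 81.2 CPM in LPS libraries. Of all tested genes, 10.5% rose and 7.09% fell in WT mice and 12.8% rose and 12.2% fell in Adm+/- mice, which applies to each marker list here. Macrophage and monocyte markers had 9 rises among 12 in WT and 7 rises and 1 fall (*Cx3cr1*) in Adm+/- mice, and 9 and 10 of 10 neutrophil markers rose. The summed level of neutrophil markers was 39.2 to 177 CPM in PBS and 1444 to 2715 CPM in LPS libraries. Type I pneumocyte markers had 1 rise (*Pdpn*) and 1 fall (*Vegfa*) among 10 in WT and 2 rises (*Pdpn* and *Rtkn2*) in Adm+/- mice. Type II markers had 1 rise (*Sftpd*) among 10 in WT, and 3 rises (*Sftpd*, *Slc34a2* and *Sftpa1*) and 1 fall (*Etv5*) in Adm+/- mice. All 12 skeletal muscle markers tested rose in WT mice and 1, *Acta1*, in Adm+/- mice, and 6 of 7 squamous epithelial markers rose in WT mice. Without WT LPS replicate 9, the WT counts were 0 rises for platelet markers, no call for type I and type II markers, 6 rises for macrophage and monocyte markers and 4 rises for squamous markers. Without both libraries of low protein-coding share, they were 2 rises for platelet markers, no call for type I markers, 2 rises for type II markers and 8 rises among 10 squamous markers tested, and type I markers had 1 fall beside 2 rises in Adm+/- mice. The part of these cells in the values of the PDGF genes was not tested.

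Over the 12 libraries, the genes most like each PDGF gene in log2 CPM, out of 14595 with a mean of at least 1 CPM, were *Rnf187* (Pearson's r 0.994) and *Mlf2* (0.992) for *Pdgfa*, *Mdc1* (0.993) and *Ttyh3* (0.993) for *Pdgfb*, and *Dgki* (0.977) and *Arhgef3* (0.961) for *Pdgfc*. They were *Zc4h2* (0.983) and *Xpo1* (0.979) for *Pdgfd*, *Supv3l1* (0.945) and *Cish* (0.913) for *Pdgfra*, and, of the genes reported here, *Cog1* (0.925) for *Pdgfrb*. The libraries share treatment, depth and the shift with GC content, so these values are a description. Among the PDGF genes themselves *Pdgfa* and *Pdgfb* were most alike (0.953), and they were as alike within groups (0.976). *Pdgfa* and *Pdgfd* had 0.270 over all libraries and -0.713 within groups.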

How the data were processed

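Whole-lung RNA of 12 mice was sequenced with a directional library kit after depletion of ribosomal RNA, 1 library per lung. Per the labels, reads were trimmed with Trim Galore, aligned to mm10 with HISAT2 and counted on Gencode genes with featureCounts. The counts deposited by the authors are whole-number raw counts per gene, without normalization. The Gencode release and the strand setting are not given in the sources used here.

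Counts were analysed in R 4.3.3 with edgeR 4.0.16. Protein-coding genes past filterByExpr were scaled by TMM factors. The quasi-likelihood test of edgeR was applied in 1 fit of all 12 libraries with 1 coefficient per group and 8 residual degrees of freedom, with Benjamini-Hochberg adjustment over all 15885 tested genes. CPM are TMM-scaled. RPKM are CPM per kilobase of merged exons of Gencode M21, in which 99.7% of genes were found. Log2 CPM used a prior count of 2. Intervals are 95% and p-values cover the spread between lungs. None of the 12 within-group pairs of libraries held the same counts, and each pair differed by more than sampling noise (chi-square divided by its degrees of freedom, 9.92 to 112). Reads carry no molecular identifiers. DESeq2 1.42.0 and limma 3.58.1 were alternatives. GC content, known for 99.6% of tested genes, is that of the longest coding transcript. The tests were run on simulated data first.

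The PDGF genes, gene lists and tests were chosen with earlier results of these data known. Genes were named by a rule: the PDGF genes, *Adm*, the 2 most abundant members of each list, for the 4 pathway lists the 2 largest rises and 2 largest falls, by the mean log2 fold change of both genotypes, of genes called in at least 1 of them, and the 2 genes most like each PDGF gene. The 2 guanylate cyclase genes of the pericyte list were matched by older symbols. Some genes of these lists and of the likeness ranking are not reported here.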

Additional observations from a re-analysis of the deposited data

How the results depend on the processing

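No paired analysis was possible because the replicate numbers of the groups do not repeat. Over 22 alternatives *Pdgfb*, *Pdgfc* and *Pdgfd* kept the direction of their LPS response in both genotypes, and leaving out both libraries of low protein-coding share was among them. Offsets for GC content were chosen after seeing the data. RLE size factors moved the 24 group levels of the PDGF genes by -0.32% to 0.43%. Genes called with LPS in WT mice numbered 2791, but 542 with limma-voom treat and 1152 in a fit of WT libraries alone, with 0 and 1 PDGF genes. In Adm+/- mice 3968 became 1139 with treat, with 0 PDGF genes. The share of higher genes among those called was 85.6% and 72.2% with treat, beside 59.6% and 51.3%. The 23 genes called for a difference in response became 168 with DESeq2, 1 with limma-voom, 0 with treat and 38 with GC offsets. The 325 genes called between genotypes in LPS became 803 with DESeq2, 79 with treat, 548 without both libraries of low protein-coding share and 616 with GC offsets. Leaving out 1 library gave 1443 (without WT LPS replicate 9) to 3074 genes and 1 to 3 PDGF genes in WT mice, 5 (without Adm+/- PBS replicate 7) to 65 (without WT LPS replicate 10) for the difference in response, and 81 (without Adm+/- LPS replicate 1) to 573 (without WT PBS replicate 5) between genotypes in LPS. The cause was not tested.

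Signs turned for log2 values near 0 that were not called. The WT response of *Pdgfra* was -0.0045 over all annotated genes, -0.046 without both libraries and -0.069 to 0.17 without 1 library, and that of *Lrp1* -0.027 to 0.30. Without 1 library the difference in response was -0.26 to 0.41 for *Pdgfa*, -0.22 to 0.21 for *Pdgfb* (-0.044 without both libraries) and -0.21 to 0.035 for *Pdgfc*. The genotype difference in PBS was -0.38 to 0.30 for *Pdgfa* (0.018 without both libraries), -0.24 to 0.21 for *Pdgfb* (0.032 without both libraries, 0.055 with GC offsets), -0.086 to 0.31 for *Pdgfd* (-0.028 with GC offsets) and -0.051 to 0.14 for *Pdgfrb*. In LPS it was -0.082 to 0.098 for *Pdgfa* and -0.10 to 0.046 for *Pdgfb* (0.061 with GC offsets).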

Other observations

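The antisense gene 6330403L08Rik, which overlaps *Pdgfa*, had 24.9, 25.2 and 53.2 CPM in WT PBS, 17.8, 23.6 and 26.4 CPM in WT LPS, 24.9, 26.4 and 37.8 CPM in Adm+/- PBS and 17.8, 18.9 and 20.8 CPM in Adm+/- LPS libraries, in a fit of all 23051 annotated genes past the filter. Its log2 fold change with LPS was -0.60 in WT (SE 0.28, edgeR adjusted p = 0.161) and -0.63 in Adm+/- mice (SE 0.28, edgeR adjusted p = 0.121), beside -0.73 and -0.60 for *Pdgfa* among the protein-coding genes. Its highest library in each PBS group was far above the others, as for *Pdgfa*.

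Cartilage markers had no call among 9 tested in either genotype, and mesothelial markers had 1 rise among 7 in each, *Upk1b* in WT and *Msln* in Adm+/- mice, named after their values were seen, where 10.5% of all tested genes rose in WT and 12.8% in Adm+/- mice. Without WT LPS replicate 9 no mesothelial marker was called in either genotype, and without both libraries of low protein-coding share 2 rose in WT and 1 in Adm+/- mice. The cartilage sum was 34.4, 61.8 and 190 CPM in WT PBS libraries, the highest in replicate 5, and 18.4 to 67.5 CPM in WT LPS libraries. In Adm+/- libraries it was 35.6 to 54.8 CPM in PBS and 21.1 to 51.6 CPM in LPS.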
